A study of Mus musculus with 24 samples.

Results

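The regions described are 201 dense runs of Foxa3 peaks in induced hepatocyte-like (iHep) cells of line 4a3. The runs were chosen by measured values, the peak positions in 1 library: the Foxa3 chromatin immunoprecipitation sequencing (ChIP-seq) library of line 4a3 made without EGS (the non-EGS Foxa3 list). Neighbouring peaks of that list with gaps of up to 10 kb were chained, and chains of at least 4 peaks were kept. The 201 runs held 1314 of the 4317 peaks of the list. The other 3003 peaks lay in 1798 single sites, 418 pairs and 123 chains of 3, and are called the scattered peaks. The series as a whole gave 26332 peaks in 14 lists, 1 list per library.

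All cells were of strain C57BL/6. The iHep cells were made from fibroblasts of mouse embryos at embryonic day 13.5, and all iHep cells carried introduced Hnf4alpha. Line 4a3 also received Foxa3, and was profiled with a Foxa3 antibody in 2 EGS libraries (replicates 1 and 3) beside the non-EGS library (replicate 2), and with a Flag antibody in 1 EGS library. Line 4a2 received Foxa2 and had 2 EGS and 1 non-EGS Foxa2 libraries and 1 EGS Flag library. Line 4a1 received Foxa1 and had 2 EGS and 1 non-EGS Foxa1 libraries. Hepatocytes from livers of 10-week-old adult mice, with no introduced factor, gave 1 EGS library each for Foxa3, Foxa2 and Foxa1. The labels do not spell out EGS or say which protein carries the Flag tag. The 10 input libraries of the series were not analysed here. In the Foxa libraries of iHep cells each line has its own introduced factor and its own Foxa antibody, so effects of these cannot be told apart there. The Flag antibody was used in lines 4a2 and 4a3, and hepatocytes were profiled with all 3 Foxa antibodies.

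Foxa1, Foxa2 and Foxa3 are forkhead proteins with a winged-helix DNA-binding domain, whose fold resembles that of linker histones. Foxa1 and Foxa2 are known as pioneer factors, which bind sites in compact chromatin and are needed for the liver to form from endoderm. Foxa3 is expressed in adult liver, and Hnf4alpha is a nuclear receptor that drives many hepatocyte genes. Sequence-specific factors are usually mapped as narrow, separate sites, and stretches in which many peaks of 1 factor follow each other are described here. Whether the peaks of a run are separate binding sites was not tested.

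The 14 lists differed widely in length, between 21 and 11408 peaks, and the read depth behind them is unknown. The Foxa3 EGS list of replicate 3 held 46 peaks, so its shares are coarse. Whether replicates were separate inductions is not stated, so a p-value here reflects only how far these libraries spread, which may be technical. Intervals below are exact 95% Clopper-Pearson intervals over peaks or runs. Only counting error enters them, and peaks of the same run are not independent, so the true intervals are wider. Where a count was 0, the share it allows is given as 3 counts of the total. All positions are of build mm9, with starts counted from 1.

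The runs were short for the most part, with a long tail. The median run held 5 peaks over 4514 bp, with quartiles of 4 and 7 peaks and of 2936 and 8441 bp. Of the 201 runs, 67 held 4 peaks, 40 held 5 and 30 held 6, while 23 runs held 10 or more. These 23 large runs took 344 peaks, or 26.2% of all peaks in runs. By length, 109 runs were shorter than 5 kb, and 10 runs reached 20 kb or more. Together the runs spanned 1437 kb.

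Peaks inside the runs were packed far more tightly than the 10 kb limit required. The median of the 1113 gaps between neighbouring peaks was 252 bp, and 82.1% of gaps were under 1 kb. In 91 runs no gap was over 1 kb, and in 10 runs the largest gap was over 9 kb. Peaks covered a median of 40.2% of a run's length, with a range of 5.53% to 86.3% over runs. Run peaks were wider than scattered peaks, with a median width of 233.5 bp (quartiles 160 and 384) in runs and 167 bp (136 and 228) outside. Of the peaks at least 1 kb wide, 63 lay in runs and 20 outside. The authors' peak scores, used only as ranks within the list, had a median percentile of 54.0 in runs and 48.8 outside, and the top decile held 16.1% of run peaks and 7.59% of scattered peaks. These widths and scores come from the library that defined the runs and are given as description. Just inside the threshold, runs of 4 peaks had a median span of 2936 bp. Just outside it, the 123 chains of 3 had a median span of 1705 bp.

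**Figure D1:**
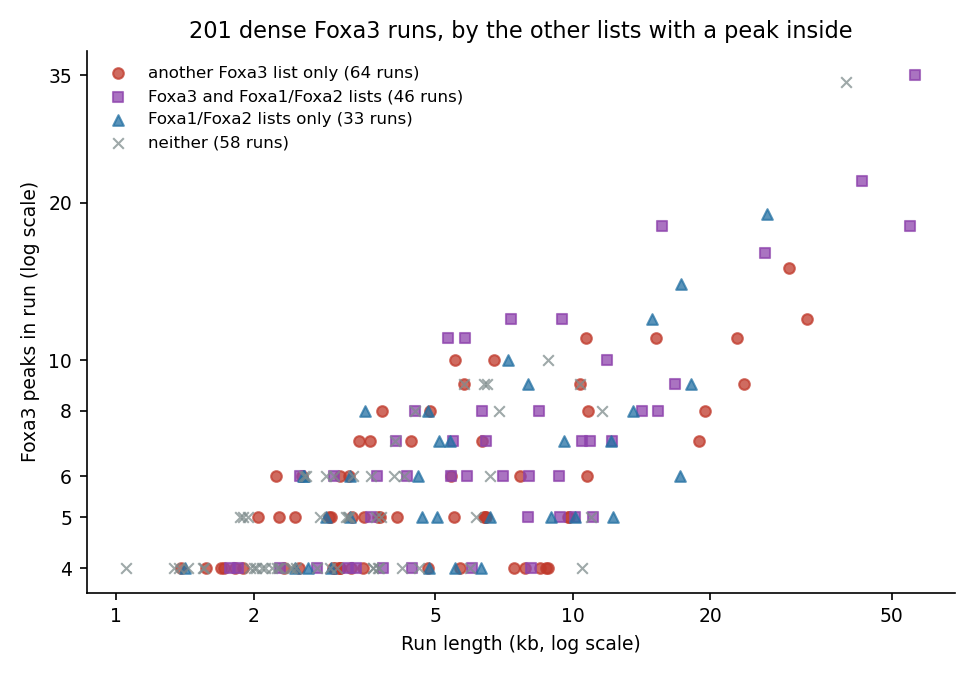
Each point is 1 of the 201 runs, by length in kb and by number of peaks of the non-EGS Foxa3 list (both axes on a log scale), with marker and colour for the other lists that had a peak inside. The run of 34 peaks, near 40 kb, held no peak of any other list, and the run of 35 peaks at 56.3 kb held peaks of all 3 other Foxa3 lists.

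Runs were found on every chromosome with peaks in this list. Chromosome 6 had 21 runs, chromosome 11 had 19, chromosome 7 had 18 and chromosome 17 had 17, while chromosome 18 had 2 and chromosomes 2, 16 and X had 3 each. As a share of a chromosome's own peaks, runs held 50.3% (42.1 to 58.5) of 153 peaks on chromosome 19 and 13.4% (9.30 to 18.5) of 231 peaks on chromosome 2. Neighbouring runs lay a median of 5156 kb apart. In 13 cases a run was within 50 kb of the next, and the closest runs were 12.4 kb apart, on chromosome 11 (87256521 to 87262933 and 87275332 to 87285158).

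The run with most peaks lay on chromosome 19 from 5794052 to 5850312 and was also the longest, at 56.3 kb with 35 peaks. It held 29 peaks of the Foxa3 EGS list of replicate 1, 17 of the Foxa3 EGS list of replicate 3 and 13 of the hepatocyte Foxa3 list. Against these, the 8 Foxa1 and Foxa2 lists had 1 peak there, from the non-EGS Foxa2 list, and the Flag list of line 4a3 had 2. Of its 35 peaks, 29 started beyond its midpoint. Near its start lay the widest peak of the whole list, of 9304 bp (5794621 to 5803924). Beyond the midpoint lay the third widest, of 6957 bp (5838626 to 5845582), which had the top score of the list.

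The second run by peaks showed the opposite. On chromosome 6 from 52171874 to 52211547, 34 peaks spread over 39.7 kb, and none of the other 13 lists had a peak there. In the Foxa3 EGS list of replicate 1, a count of 0 among 1246 peaks allows a share of up to 0.241%. The other runs with no peak of another list were smaller. The next in size held 9 peaks each, and 4 runs tied at that size. One lay on chromosome 7 (128877909 to 128888291) and one on chromosome 6 (127095773 to 127102279). The other two lay on chromosome 3 (starting at 89194305) and on chromosome 11 (starting at 100000822).

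On chromosome 13 from 23622996 to 23677820, 18 peaks were spaced widely over 54.8 kb, with a median gap of 1793 bp. The Foxa3 EGS lists had 16 peaks (replicate 1) and 2 peaks (replicate 3) in it, while the hepatocyte Foxa3 list had 0. This run was the largest of 4 within 2046 kb of chromosome 13, a group chosen after its values were seen. The 4 runs held 37 peaks of the non-EGS Foxa3 list, 33 of Foxa3 EGS replicate 1 and 4 of Foxa3 EGS replicate 3. They held 0 of the 1091 hepatocyte Foxa3 peaks, a count that allows a share of up to 0.275%, and 4 peaks of the 8 Foxa1 and Foxa2 lists. Its neighbour from 23830434 to 23854186 had 9 peaks in the non-EGS list and 9 and 2 in the Foxa3 EGS lists, and none in any other list.

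On chromosome 12, the run from 55810556 to 55840284 had 15 peaks at a median score percentile of 83.6. Its span also held 14 peaks of Foxa3 EGS replicate 1, 2 of Foxa3 EGS replicate 3 and 13 of hepatocyte Foxa3. No Foxa1, Foxa2 or Flag list had a peak in it. The same pattern, in runs chosen after their values were seen, was found on chromosome 1 (135970596 to 135976116). There a run of 10 peaks also held 5 and 2 peaks of Foxa3 EGS replicates 1 and 3 and 6 of hepatocyte Foxa3. No other antibody had a peak in that run. On chromosome 5 (143657022 to 143672259), a run of 11 peaks also held 8 of Foxa3 EGS replicate 1 and 10 of hepatocyte Foxa3. That run had no Foxa1 or Foxa2 peak and 1 Flag peak. The run on chromosome 9 from 69859050 to 69902144 (22 peaks, 43.1 kb) held 1 peak of Foxa3 EGS replicate 1, against 11 peaks of 4 Foxa1 or Foxa2 lists and 1 Flag peak. The run on chromosome 2 from 152630400 to 152657068 (19 peaks) held no other Foxa3 peak, 4 peaks of Foxa1 or Foxa2 lists and 2 Flag peaks.

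The remaining runs among the 10 with most peaks held between 1 and 13 peaks of other lists. On chromosome 18 (43882246 to 43897958), 18 peaks covered 66.2% of 15.7 kb, and Foxa3 EGS replicate 1 had 5 peaks, against 1 of non-EGS Foxa1 and 1 of Flag. On chromosome 9 (102619154 to 102636378), 14 peaks held 1 peak of another list, non-EGS Foxa2. On chromosome 4 (88419287 to 88451928), 12 peaks were spread over 32.6 kb, with 1 peak each of Foxa3 EGS replicate 1 and the Flag list of line 4a3. The run of 16 peaks on chromosome 7 (80677916 to 80704254) had 2 peaks of Foxa3 EGS replicate 1 and 5 of hepatocyte Foxa3, beside 5 peaks of 3 Foxa1 or Foxa2 lists and 1 Flag peak.

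No gene was assigned to any run, because the gene table at hand is of build GRCm38.p6 and the peak positions are of build mm9.

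**Figure D2:**
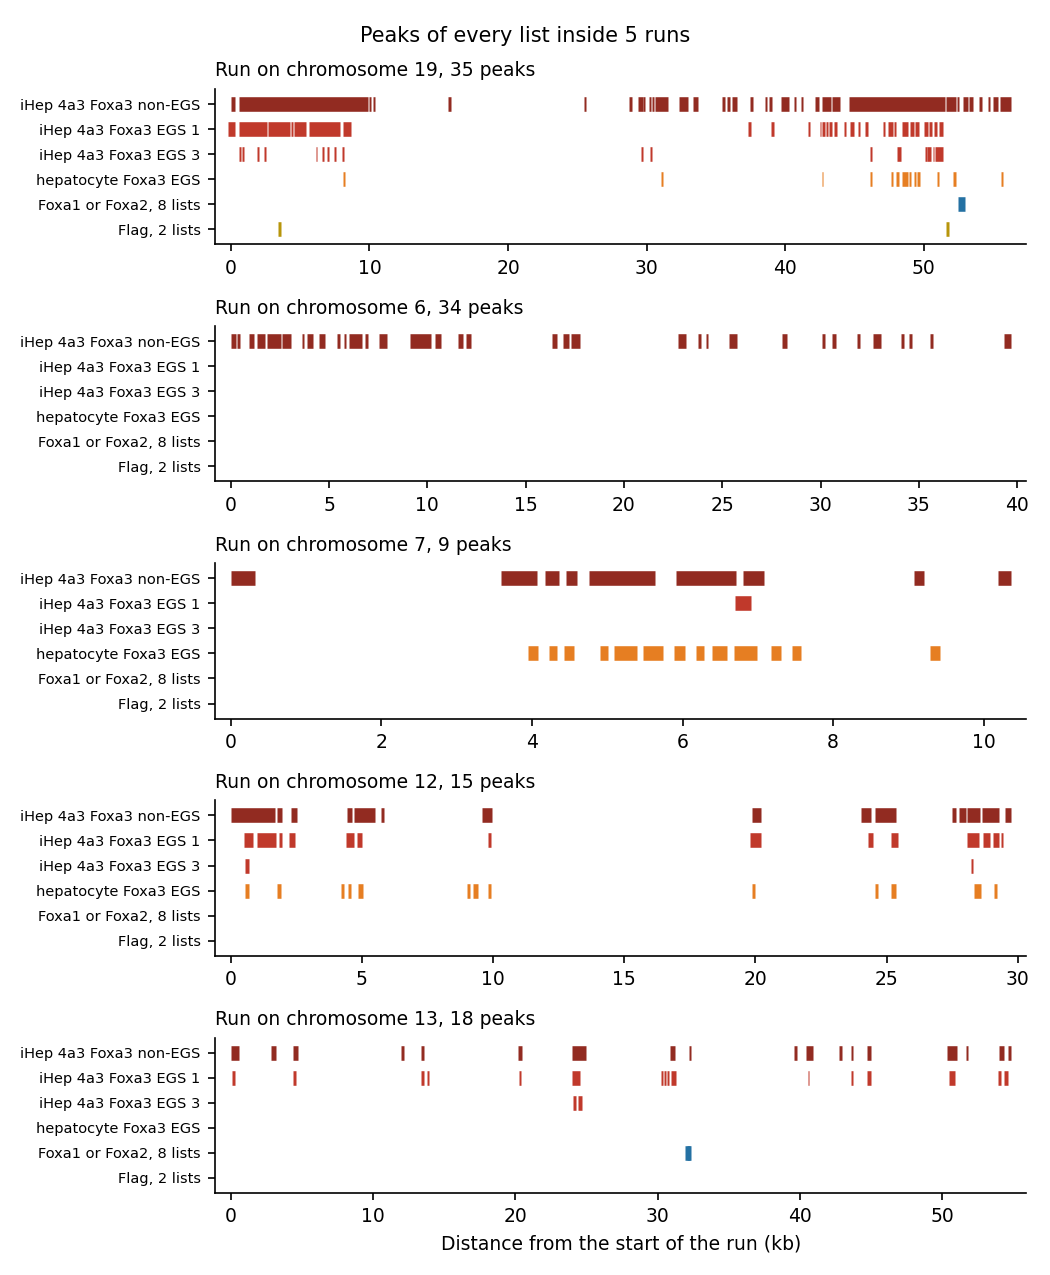
Peaks of every list drawn to scale against the distance from the start of the run (kb), in the 2 runs with most peaks, the 2 with most hepatocyte Foxa3 peaks other than these, and the run on chromosome 13. Foxa3 lists are above the 8 Foxa1 or Foxa2 lists and the 2 Flag lists, which share a line each. The run on chromosome 6 holds peaks of the non-EGS Foxa3 list alone.

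The question asked of the other libraries was whether their own peaks fall in the same runs. Of the peaks of the Foxa3 EGS list of replicate 1, 314 of 1246 lay in the runs (25.2%, 22.8 to 27.7). Of the 46 peaks of Foxa3 EGS replicate 3, 34 did (73.9%, 58.9 to 85.7), 17 of them in the run on chromosome 19. In the hepatocyte Foxa3 list 198 of 1091 did (18.1%, 15.9 to 20.6). All 3 shares were above those of the 8 Foxa1 and Foxa2 lists, which ran from 0% to 3.65%. With peaks within 1 kb merged before chaining, 17 runs were left, and the shares were 3.92% in Foxa3 EGS replicate 1, 37.9% in Foxa3 EGS replicate 3 and 3.56% in hepatocyte Foxa3, against at most 0.662% in the Foxa1 and Foxa2 lists.

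Among the Foxa2 lists, the shares in runs were 3.65% (2.60 to 4.98) and 3.03% (2.04 to 4.32) in the EGS lists of replicates 2 and 1. The longest list of the series, non-EGS Foxa2, had 100 of its 11408 peaks in the runs (0.877%, 0.714 to 1.07), and the hepatocyte Foxa2 list had 4 of 244 (1.64%, 0.448 to 4.14). Among the Foxa1 lists, EGS replicate 1 had 3.51% (2.43 to 4.90), EGS replicate 2 had 0.923% (0.300 to 2.14) and the non-EGS list had 0.787% (0.519 to 1.14). The hepatocyte Foxa1 list had 0 of 166 peaks in the runs (exact interval 0 to 2.20), and the limit of 3 counts is 1.81%.

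The 3 Foxa3 lists averaged 39.1% ± 30.4 (SD, n = 3) of their peaks in the runs and the 8 Foxa1 or Foxa2 lists 1.80% ± 1.40 (SD, n = 8). The Foxa3 mean was 37.3 percentage points higher. An exact two-sided permutation of the libraries returned p = 0.012, which is the lowest value 165 assignments can reach (adjusted over 2 tests, also 0.012). The share of each list's peaks in dense runs of its own had been compared in these data before, so this is no independent support. Of the 3 Foxa3 libraries, 2 also share line and antibody with the library that defined the runs. The outcome was thus in part set by how the runs were chosen. Libraries of the same line are not independent of each other, which the permutation does not take into account. Without Foxa3 EGS replicate 3 the difference was 19.9 percentage points (exact p = 0.044, again the smallest possible). The sample titles carry a code whose meaning is not stated, treated here as a possible batch. Within code 170 the 1 Foxa3 EGS library had 73.9% and the 1 Foxa1 library 0.923%. Within the single code of the hepatocyte libraries, Foxa3 had 18.1% and the mean of Foxa2 and Foxa1 was 0.820%. No other code holds both Foxa3 and Foxa1 or Foxa2 libraries. With iHep libraries alone the difference was 47.4, and the smallest possible exact p is 0.071.

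**Figure D3:**
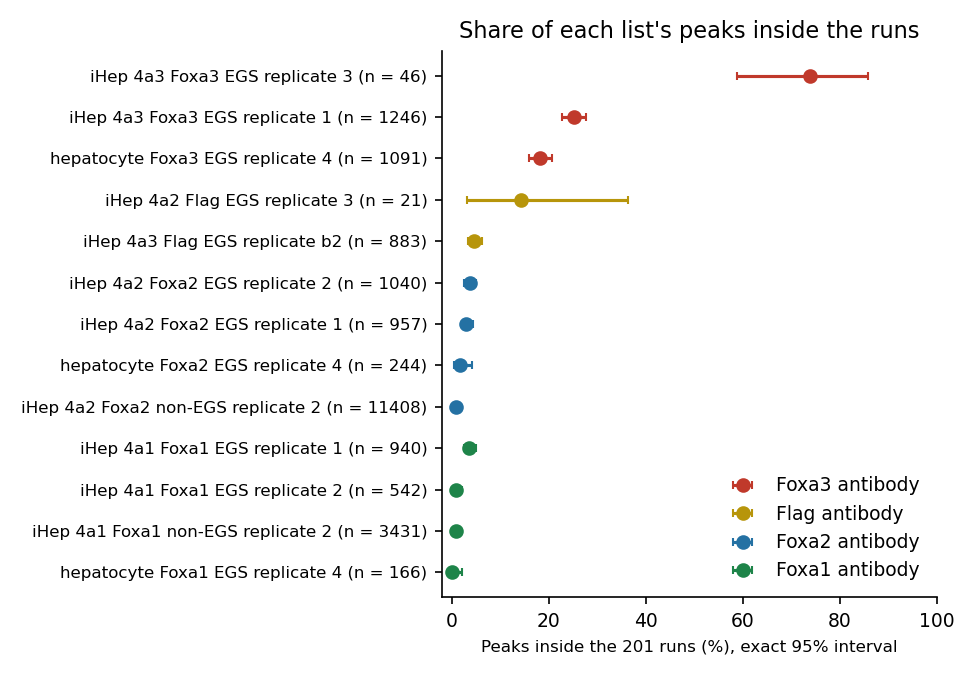
Share of each list's own peaks that lay inside the 201 runs (percent), with exact 95% intervals and the number of peaks in the list. The 3 Foxa3 lists lie at 18.1% and above, and the 8 Foxa1 and Foxa2 lists at 3.65% and below.

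Peaks of the other lists inside runs mostly sat on peaks of the non-EGS Foxa3 list and not in the gaps. This held for 265 of 314 peaks of Foxa3 EGS replicate 1 (84.4%), all 34 of Foxa3 EGS replicate 3 and 166 of 198 of hepatocyte Foxa3 (83.8%). For non-EGS Foxa2 it held for 89 of 100. In the other iHep lists for Foxa1 or Foxa2 the share ran from 85.2% to 100%, and in hepatocyte Foxa2 it was 50% of 4 peaks. No reference share was computed. Peaks of the non-EGS Foxa3 list covered a median of 40.2% of a run, most gaps were short and an overlap of 1 bp counted. In the runs that they hit, Foxa3 EGS replicate 1 had a median of 2 peaks and up to 29, hepatocyte Foxa3 a median of 3 and up to 13, and Foxa3 EGS replicate 3 a median of 1 and up to 17. Each of the 7 Foxa1 or Foxa2 lists with a peak in the runs had a median of 1. Foxa3 EGS replicate 1 put 4 or more peaks into 24 runs, hepatocyte Foxa3 into 22 and Foxa3 EGS replicate 3 into 1, against 2 runs for non-EGS Foxa2 and 0 for the other Foxa1 and Foxa2 lists.

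The same chaining rule was applied to the other lists. Of the 45 dense runs of Foxa3 EGS replicate 1, 31 met a run of the non-EGS list (68.9%), and they touched 30 of the 201 runs (14.9%). Both of the dense runs of Foxa3 EGS replicate 3 did, touching 1 run. Of the 67 dense runs of hepatocyte Foxa3, 22 did (32.8%), touching 22 runs (10.9%). In the non-EGS Foxa2 list, 2 of 54 dense runs did (3.70%). Few dense runs were found in the other lists: 1 of 2 met a run in non-EGS Foxa1 and 2 of 5 in the Flag list of line 4a3, and 0 of 14 did in the hepatocyte and EGS lists for Foxa1 and Foxa2. None of the 201 runs met a dense run of all 3 hepatocyte lists.

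Seen run by run, 147 of the 201 runs held a peak of at least 1 other list and 54 held none. Foxa3 lists were present in 110 runs (54.7%), in 64 of them without a Foxa1 or Foxa2 peak and in 46 with one. In 33 runs there were Foxa1 or Foxa2 peaks and no other Foxa3 peak, and in 58 runs neither. Of the 58, 4 held a Flag peak. Among single sites, pairs and chains of 3, another Foxa3 list had a peak in 11.3%, 23.2% and 37.4%. In chains of 4 to 5, 6 to 9 and 10 or more it was 49.5%, 56.3% and 73.9%. The median span rose over these classes as well, and the part of span was not tested. The runs with another Foxa3 list only had a median length of 4271 bp and a median score percentile of 59.7. The 58 with neither were shorter, with a median of 3204 bp, and stood at a median percentile of 50.6. Runs with both stood at 6735 bp and a percentile of 52.1, and runs with Foxa1 or Foxa2 only at 5398 bp and 53.6. A shorter run also spans less sequence in which a peak of another list can lie.

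Among the 3 other Foxa3 lists, Foxa3 EGS replicate 1 had peaks in 100 runs, Foxa3 EGS replicate 3 in 13 and hepatocyte Foxa3 in 53. All 13 runs of replicate 3 were among the 100 of replicate 1. Of the 53 runs with hepatocyte Foxa3 peaks, 43 also held Foxa3 EGS replicate 1, which is 81.1% of the hepatocyte set and 43% of the replicate 1 set. All 3 lists met in 10 runs. Larger runs were hit more often: Foxa3 EGS replicate 1 had peaks in 48 of 107 runs of 4 or 5 peaks, 36 of 71 runs of 6 to 9 and 16 of 23 runs of 10 or more. Larger runs are also longer, so this is a description only.

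The peak counts of the 2 Foxa3 sources differed in some runs. Of the 24 runs with 4 or more peaks of Foxa3 EGS replicate 1, 11 held no hepatocyte Foxa3 peak, and these include 3 of the 4 runs on chromosome 13. Over all 201 runs, hepatocyte Foxa3 had a peak in only 53 (26.4%), so its absence from a run was common. Of the 22 runs with 4 or more hepatocyte Foxa3 peaks, 21 held a peak of replicate 1, against 100 of all 201 runs (49.8%). The other extreme, chosen after its values were seen, was a run of 9 peaks on chromosome 7 (29157252 to 29167610). It held 1 peak of Foxa3 EGS replicate 1 and 13 of hepatocyte Foxa3. The run of 12 peaks on chromosome 8 (129112232 to 129119562) had 1 and 9. Across the 201 runs the counts of the 2 lists had a Spearman rho of 0.45. The points share the runs and their lengths, so this is no test. These are 1 library each, so a difference between iHep cells and hepatocytes has no replicate check here.

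**Figure D4:**
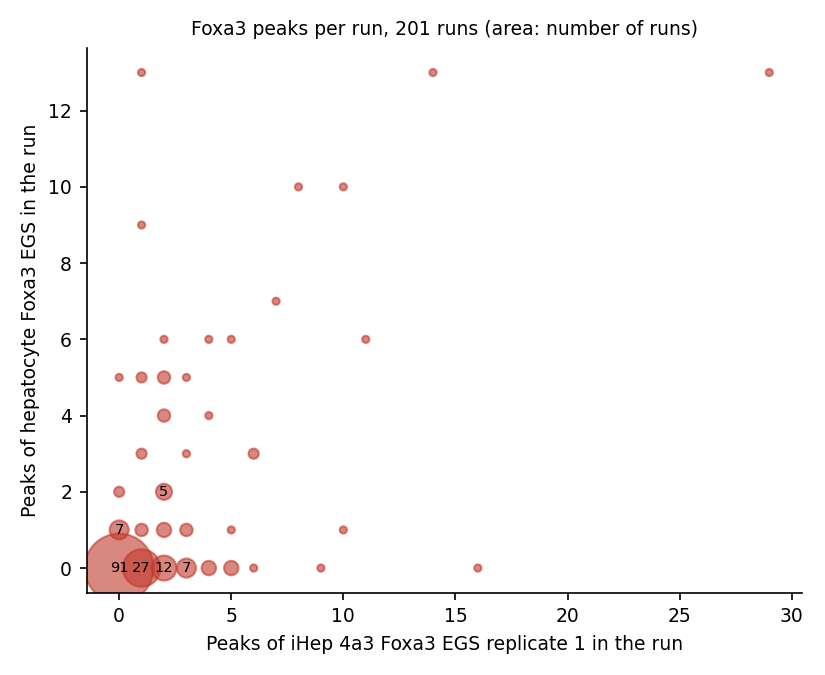
Number of peaks per run in the Foxa3 EGS list of replicate 1 of line 4a3 (x axis) and in the hepatocyte Foxa3 list (y axis), with point area for the number of runs, printed where above 4. In 91 runs both were at 0, and the run at 16 peaks of the x axis and 0 of the y axis is that of 18 peaks on chromosome 13.

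A second comparison set the run peaks against the scattered peaks of the same list. Run peaks were overlapped more often by Foxa3 peaks of other libraries and less often by Foxa1 or Foxa2 peaks. A peak of any of the 3 other Foxa3 lists overlapped 264 of 1314 run peaks (20.1%, 18.0 to 22.4) and 369 of 3003 scattered peaks (12.3%, 11.1 to 13.5). Over all 4317 peaks the share was 14.7%. A peak of any of the 8 Foxa1 or Foxa2 lists overlapped 117 run peaks (8.90%, 7.42 to 10.6) and 557 scattered peaks (18.5%, 17.2 to 19.99), against 15.6% over all. The non-EGS Foxa2 list alone overlapped 109 of these run peaks and 530 of these scattered peaks. For the Flag lists it was 34 run peaks (2.59%) and 160 scattered peaks (5.33%), against 4.49% over all.

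List by list, the share of run peaks minus that of scattered peaks was above 0 in all 3 Foxa3 lists. Foxa3 EGS replicate 1 overlapped 15.6% of run peaks and 11.3% of scattered peaks. Hepatocyte Foxa3 overlapped 9.21% and 2.40%, and Foxa3 EGS replicate 3 overlapped 1.45% and 0.200%, of run and of scattered peaks. In the 6 iHep lists for Foxa1 or Foxa2 the difference lay between -9.35 and -2.88 percentage points. Non-EGS Foxa2 overlapped 8.30% of run peaks and 17.6% of scattered peaks, and non-EGS Foxa1 1.98% and 6.63%. The hepatocyte Foxa2 list gave -0.65, and the hepatocyte Foxa1 list overlapped no peak of either kind. A longer list can overlap more peaks of both kinds, and whether list length has a part in these differences was not tested.

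The difference averaged 4.13 ± 2.79 percentage points in the Foxa3 lists (SD, n = 3) and -3.86 ± 2.90 in the Foxa1 or Foxa2 lists (SD, n = 8). The gap between these means was 7.997 percentage points, with an exact two-sided permutation p = 0.012, again the lowest that can be reached (adjusted, also 0.012). It was 4.13 within code 170 and 7.13 among the hepatocyte libraries. With iHep libraries alone it was 7.84, and the smallest possible exact p is 0.071. Shared line and antibody limit this test as they do the first, so its p-value is no independent support.

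The shares differed by chain size. From single sites through chains of 2, 3, 4 to 5 and 6 to 9 to chains of 10 or more, the share overlapped by another Foxa3 list was 11.3%, 13.2%, 14.9%, 21.4%, 18.1% and 21.2%. Over the same classes the share overlapped by a Foxa1 or Foxa2 list was 21.5%, 15.0%, 12.2%, 9.19%, 9.36% and 7.85%. The high share of single sites with a Foxa1 or Foxa2 peak rested on 1 long list: of the 387 such sites, 370 were overlapped by non-EGS Foxa2. No other Foxa1 or Foxa2 list overlapped more than 9.29% of single sites, below the 11.3% of the Foxa3 lists together.

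**Figure D5:**
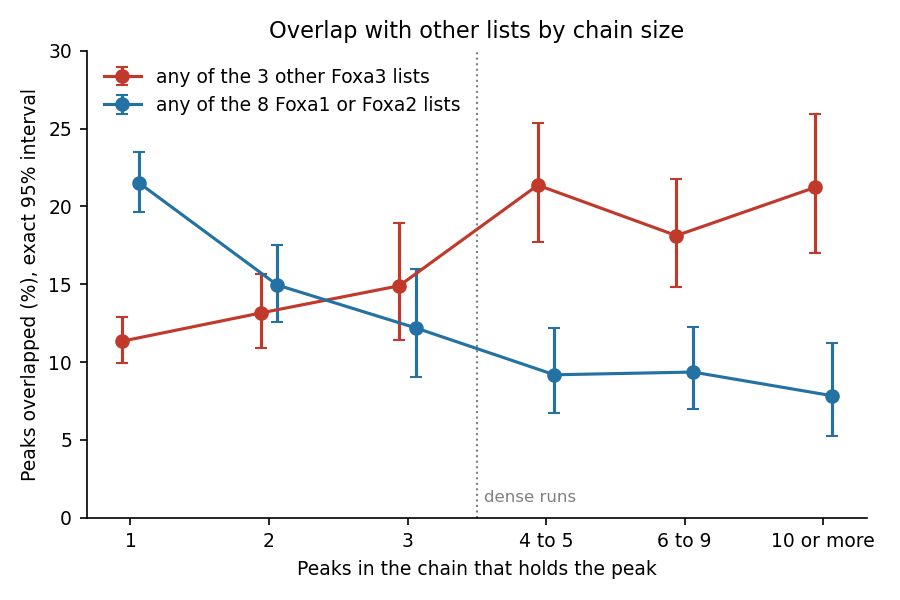
Share of the peaks of the non-EGS Foxa3 list that overlap a peak of any of the 3 other Foxa3 lists or any of the 8 Foxa1 or Foxa2 lists (percent, exact 95% intervals), by the number of peaks in the chain. The lines cross between single sites, at 11.3% and 21.5%, and chains of 10 or more, at 21.2% and 7.85%.

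Width moved with the first of these shares. With the list split into 4 equal classes of width, other Foxa3 lists overlapped 30.9% (27.2 to 34.9) of run peaks and 28.5% (24.6 to 32.6) of scattered peaks in the widest class, and in the narrowest 8.29% (4.91 to 12.9) and 8.12% (6.40 to 10.1). Within each class of width the intervals of run and scattered peaks overlapped for the Foxa3 lists. For the Foxa1 or Foxa2 lists they were apart in all 4 classes, with 10.7% (8.30 to 13.6) of run peaks and 22.2% (18.7 to 26.1) of scattered peaks in the widest and 6.34% (3.42 to 10.6) and 16.6% (14.2 to 19.2) in the narrowest. In the top of 4 equal classes of score, other Foxa3 lists overlapped 37% (32.3 to 41.9) of run peaks and 28.0% (24.7 to 31.5) of scattered peaks. In classes 1 (the lowest), 2 and 3 these shares were 9.27% and 5.23%, 14.7% and 5.91%, and 14.2% and 12.6%. The intervals for the Foxa3 lists overlapped in classes 1 and 3 and were apart in classes 2 and 4. Foxa1 or Foxa2 lists overlapped 10% (7.24 to 13.4) and 17.7% (14.9 to 20.8) in the top class, with intervals apart in all 4 classes. Peaks of the same run are not independent, so intervals that lie apart or overlap here are a description and no test. The Foxa1 or Foxa2 shares rest mainly on 1 library. Non-EGS Foxa2 overlapped 109 of the 117 run peaks and 530 of the 557 scattered peaks counted over all classes. The part of width in the overlap with Foxa3 lists was not tested further.

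Peaks of at least 1 Foxa1 or Foxa2 list lay in 79 of the 201 runs (39.3%), and 9 runs held peaks of 7 or more other lists. Among single sites, pairs and chains of 3, a Foxa1 or Foxa2 list had a peak in 21.5%, 23.2% and 32.5%. In chains of 4 to 5, 6 to 9 and 10 or more it was 28.0%, 49.3% and 60.9%. Larger chains also had a longer median span. The run found in most other lists, on chromosome 17 from 35833555 to 35848935 with 8 peaks, held peaks of 10 of them: both Foxa3 EGS lists, all 6 iHep lists for Foxa1 or Foxa2 and both Flag lists. No hepatocyte list had a peak in it. The runs on chromosome 3 (90416258 to 90426374) and chromosome 5 (65194467 to 65203781) held peaks of 9 other lists each. In the run on chromosome 3, 5 peaks covered 65.0% of the run and included one of 5834 bp, and Foxa3 EGS replicate 1 had 5 peaks there.

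A run of 5 peaks on chromosome 14 (99695341 to 99698955) and one of 7 peaks on chromosome 6 (86437119 to 86449330) held peaks of 8 other lists, each with Foxa3 EGS replicate 1 and all 6 iHep lists for Foxa1 or Foxa2. Peaks of 7 other lists lay in 4 runs. These were a run of 8 peaks on chromosome 4 (55540610 to 55554826), one of 9 peaks on chromosome 5 (99665561 to 99682339), the run of 12 peaks on chromosome 8 named above, and one of 8 peaks on chromosome 11 (120091492 to 120099932). In most of these runs a Foxa1 or Foxa2 list contributed 1 or 2 peaks. The non-EGS Foxa3 list had 5 to 12 peaks in them, but the rule required at least 4, so this is no comparison.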

How the data were processed

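ChIP-seq peak lists of 14 libraries were used. The build, mm9, and the names BWA 0.6.2, bedtools 2.16.2 and MACS2 2.1.0 come from the submitters' processing notes. Settings, and whether an input was subtracted, are not given in the sources at hand. Each deposited file gives peak positions and a score per peak, the authors' own value on an unstated scale, from which only the order of peaks inside a list was taken. Depth is unknown, since the deposited files hold no read counts.

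Peaks were chained, overlapped (at least 1 bp) and counted with scipy 1.17.1, pandas 2.3.3 and numpy 2.4.6 under Python 3.11.15. A gap is the distance from the largest end so far to the next start. The chaining and the permutation code were tested on simulated data. The Foxa3 libraries that did not define the runs (3) were compared with the Foxa1 and Foxa2 libraries (8) by exact permutation, adjusted by Benjamini-Hochberg over 2 tests. Flag libraries stayed out of both tests.

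Runs were named by rule: the 10 with most peaks, the 5 longest, the 10 with peaks of most other lists and the 3 largest with none. The members and lists were chosen with earlier results of these data known. A genome of build mm9 was not used here, so no sequence and no gene overlap is given, and the gene lists set for that overlap were not counted. Most of the alternatives tried are given with their effect at the end.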

Additional observations from a re-analysis of the deposited data

Results flagged for a closer look

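Among the 6 iHep lists for Foxa1 or Foxa2, the non-EGS Foxa2 list stood apart from the others, with a difference between run and scattered peaks of -9.35 percentage points. It was also the longest list, and its share was the highest of the 6 for run peaks and for scattered peaks. Chance flags about 1 in 20 such groups, and among all 8 Foxa1 or Foxa2 lists it did not stand apart by the same measure.

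The Flag libraries were in neither test. In the Flag list of line 4a3, 41 of 883 peaks lay in the runs, a share of 4.64% (exact 95% interval 3.35 to 6.25), above the 0.340% that a count of 0 allows. It came from the same line as the runs, and its share was below those of all 3 Foxa3 lists (18.1% to 73.9%). Its interval overlapped those of some Foxa1 and Foxa2 lists, such as Foxa2 EGS replicate 2 (3.65%, 2.60 to 4.98). It lay above those of others, such as non-EGS Foxa2 (0.877%, 0.714 to 1.07). This Flag list overlapped 2.59% of run peaks and 5.29% of scattered peaks, a difference of -2.71 percentage points, below 0 as in the iHep Foxa1 and Foxa2 lists. In the Flag list of line 4a2, 3 of 21 peaks lay in the runs (14.3%, 3.05 to 36.3).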

How the results depend on the processing

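The number of runs depended on the rule. It was 324 with chains of at least 3 peaks, 94 with at least 6, 84 after dropping the lower-scoring 50% of peaks and 17 when peaks within 1 kb were merged. It stayed at 198 and 216 with gaps of up to 5 and 20 kb.

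Both differences between Foxa3 and Foxa1 or Foxa2 libraries kept their direction in all alternatives. Every alternative took the runs from the same library, and 2 of the 3 Foxa3 lists share its line and antibody. The direction was thus in part set by that choice, and its persistence is no independent support. The 2 differences no longer passed 0.05 with iHep libraries only (47.4 and 7.84 percentage points, exact p = 0.071, the smallest possible). Leaving out each library in turn gave 19.9 to 47.8 for the share of peaks in runs and 6.66 to 9.44 for the run against scattered overlap. With peaks within 1 kb merged they were 14.9 and 15.7. The 14.9 rests mainly on the 46-peak list of Foxa3 EGS replicate 3, at 37.9%, beside 3.92% in Foxa3 EGS replicate 1 and 3.56% in hepatocyte Foxa3. The 2 differences were 23.8 and 6.26 with the upper-scoring 50% of peaks (exact p = 0.012 and 0.036). With EGS libraries only they were 37.0 and 6.95 (exact p = 0.024 for both, the smallest possible). With Flag libraries counted with their line's factor they were 27.3 and 5.85 (exact p = 0.0056 and 0.020). More assignments are possible in that setting, where the smallest reachable p is 0.0028. The Flag lists themselves did not share the direction of the differences. That of line 4a3 had 4.64% of its peaks in runs and a run minus scattered overlap of -2.71. That of line 4a2, with 21 peaks, had 14.3% and 0.052. Of 117 per-list shares in runs, recomputed under the alternatives, 38 fell outside the main interval of the list. Alternatives chosen after seeing the data were a replicate block over the numbers 1 and 4 that both sides share (19.6 and 7.78, exact p = 0.22, the smallest that 9 assignments allow), and leaving out each list's largest run (31.4 for the share in runs). The labels do not say that equal numbers of different lines mark a shared batch. Unknown depth limits all counts.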
